A study of Mus musculus with 12 samples.

Results

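The genes described here encode 10 peptidases of the lysosome: the cathepsins Ctsa, Ctsb, Ctsd, Ctsh, Ctsk, Ctsl and Ctsz, the dipeptidyl and tripeptidyl peptidases Dpp7 and Tpp1, and legumain (Lgmn). They were chosen by name, as 10 of 21887 protein-coding genes, and the data on them are peaks of the transcription factor USF2 in chromatin immunoprecipitation sequencing (ChIP-seq). A peak was assigned to a gene when its summit, the position of highest read coverage, lay within 1000 bp of either end of the annotated gene or inside the gene. Of 3804 regions with a USF2 peak, 5 met this rule, and they lay at 4 of the 10 genes.

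The cells were mouse embryonic fibroblasts (MEFs) labelled wild type, kept in normal culture or starved of glucose, with 2 USF2 libraries per condition and 1 peak list per library. They are called normal 1, normal 2, starved 1 and starved 2 below. The labels give neither the length of the starvation nor whether the cells were primary or an immortal line. They do not say that the 2 libraries of a condition are separate cultures, and any p-value then measures only the spread between libraries, which may be technical. Peak lists hold no expression values, and fibroblast marker genes could not be checked in them.

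Lysosomal peptidases are made as inactive precursors, carried to the lysosome and activated there, where they break proteins down to peptides and amino acids. Ctsa, Dpp7 and Tpp1 are serine peptidases, Ctsd is an aspartic peptidase, and Ctsb, Ctsh, Ctsk, Ctsl and Ctsz are papain-like cysteine peptidases. Legumain is a cysteine peptidase of another fold that cuts after asparagine. USF2 binds as a dimer to the E-box, whose best known form is the palindrome CACGTG. Related factors that control lysosomal genes, such as TFEB, recognise the same core.

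The lists held 1645 and 2124 (normal) and 825 and 1178 (starved) peaks, and the narrowest peak was 152 bp in the normal and 306 bp in the starved lists. The lists of the 2 conditions were therefore made with different widths, and where values of a peak are set side by side across conditions they describe these lists, with the part of the width not tested. The 2 normal lists also had many exact values in common, and identical peak edges more often than the 2 starved lists, although their calls were not identical. Of the regions that the normal lists share, 44.8% had an identical peak start or end in both, and of those that the starved lists share 21.7%, against at most 1.12% for pairs across conditions. None of the 5 regions of the peptidase genes had such an edge in common. Local background, recovered from the deposited values, agreed within 0.1% between the normal lists in 64.8% of the 247 regions called in all 4 lists, and between the starved lists in 0 of 247. These 2 figures cannot be compared, because the starved backgrounds differed in scale by more than 0.1%. The median background over these regions was 1.23 and 1.27 reads in the starved lists, but 0.890 reads in each normal list. The regions at all 4 called peptidase genes were among those whose background agreed within 0.1% in the normal lists. Whether the normal libraries share reads or a control cannot be told from the lists.

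The sequences at the called genes show where USF2 signal sat. Promoter sequences came from RefSeq (GRCm38.p6), 250 bases before an annotated transcription start and 50 from it on. The table held 8 of the 10 genes, with 10 starts, and not Ctsb and Ctsh. The first 280 bases of the windows that hold a summit are given 5′ to 3′ on the strand of the gene, with every CACGTG in capitals, and likewise every CATGTG, which may read CACATG on this strand. They are chr2:164833523-164833802 on the plus strand, chr2:25356303-25356582 on the minus strand and chr7:142387798-142388077 on the minus strand.
Ctsa, second annotated start: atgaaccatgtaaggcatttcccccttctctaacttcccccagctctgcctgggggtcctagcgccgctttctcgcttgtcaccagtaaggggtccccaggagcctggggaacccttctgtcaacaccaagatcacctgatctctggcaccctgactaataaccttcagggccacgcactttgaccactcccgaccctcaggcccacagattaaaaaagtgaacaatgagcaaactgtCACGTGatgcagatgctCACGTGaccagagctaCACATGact
Dpp7: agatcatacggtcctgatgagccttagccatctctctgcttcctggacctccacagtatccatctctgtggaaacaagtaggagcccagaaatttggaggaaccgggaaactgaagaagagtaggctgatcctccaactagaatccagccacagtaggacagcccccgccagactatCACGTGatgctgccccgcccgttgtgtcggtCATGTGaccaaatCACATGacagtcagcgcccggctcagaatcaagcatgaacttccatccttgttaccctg
Ctsd: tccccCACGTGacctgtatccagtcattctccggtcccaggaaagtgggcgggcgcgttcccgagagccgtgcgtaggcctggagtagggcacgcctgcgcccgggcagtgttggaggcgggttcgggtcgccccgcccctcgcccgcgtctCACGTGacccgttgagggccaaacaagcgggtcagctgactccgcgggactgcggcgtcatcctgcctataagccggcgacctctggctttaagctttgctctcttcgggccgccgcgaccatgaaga

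Each of these 3 windows held TCACGTGA, the E-box core extended by the palindromic bases T and A, and most summits lay close to it. At Ctsa 2 copies stood 17 bp apart, centre to centre, followed 16 bp on by a CACATG. The 4 summits were 2.5 to 6.5 bp from the centre of the nearest CACGTG. At Dpp7 the summits of normal 1, normal 2 and starved 1 were 6.5, 1.5 and 5.5 bp from the only CACGTG, and that of starved 2 was 70.5 bp away. At Ctsd the summits of normal 1, normal 2 and starved 1 were 10.5, 3.5 and 23.5 bp from the CACGTG that begins 98 bases before the start. In starved 2 the Ctsd summit lay 27.5 bp from the other copy, 245 bases before the start and 147 bp from the first. That copy is not part of a TCACGTGA, and the summit was 119.5 bp from the TCACGTGA of this window.

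**Figure D1:**
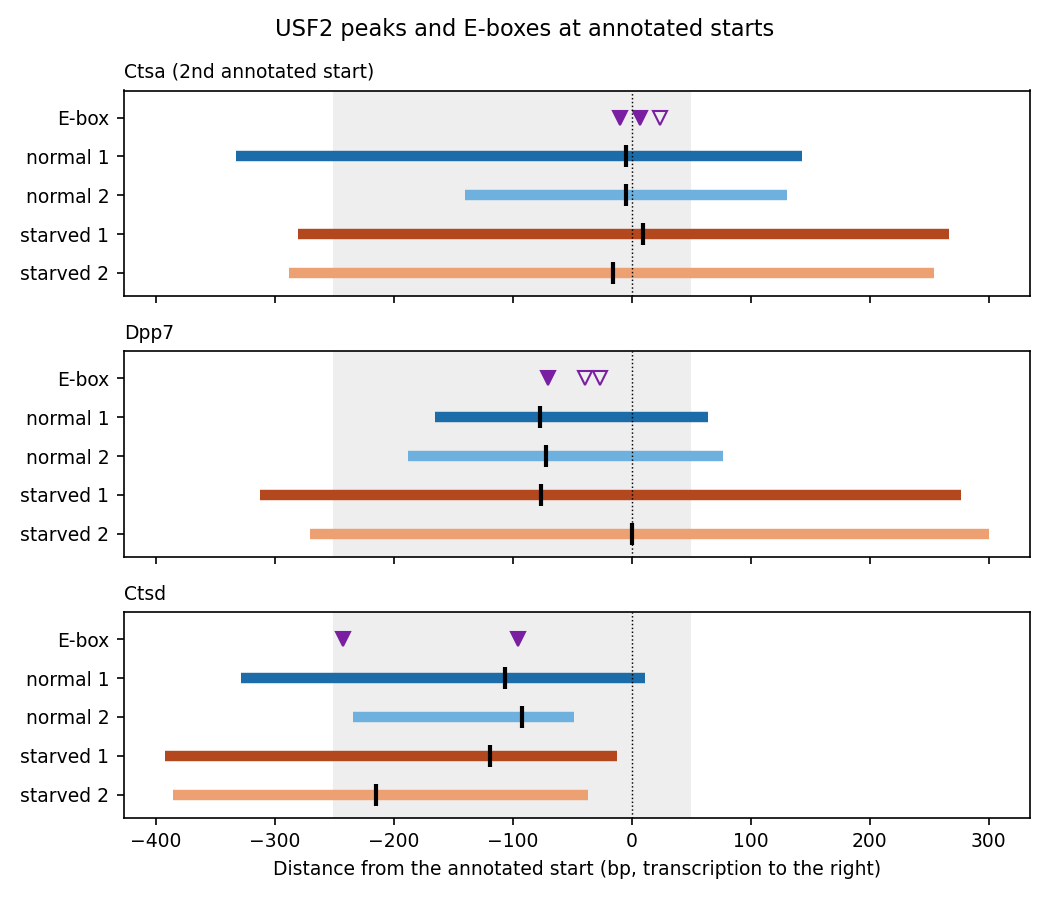
Peak spans (bars) and summits (black ticks) of the 4 lists by distance in bp from the annotated start, for Ctsa, Dpp7 and Ctsd, with filled triangles for CACGTG, open triangles for CATGTG and grey for the window searched. The summits at Ctsa span 26 bp beside the paired E-boxes, while in starved 2 the summits at Dpp7 and Ctsd stand apart from those of the other lists.

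Genes without a peak had E-box cores too, but not the extended form. Of the 8 genes with a window, 5 held CACGTG, and these included Ctsl and Lgmn, which had no peak in any list. The cores are set side by side with 10 bases on each side (5 at the far Ctsd copy, which lies at the edge of its window), with capitals for the core.
Ctsa, 12 bases before the start: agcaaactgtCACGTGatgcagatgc
Ctsa, 5 bases after the start: tgcagatgctCACGTGaccagagcta
Dpp7, 73 bases before: gccagactatCACGTGatgctgcccc
Ctsd, 98 bases before: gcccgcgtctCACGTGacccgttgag
Ctsd, 245 bases before: tccccCACGTGacctgtatcc
Ctsl, 236 bases before: cgttagaagcCACGTGctgatctaaa
Lgmn, second start, 49 bases before: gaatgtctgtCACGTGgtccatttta
Tpp1, CATGTG 5 bases after: agaccatgctCATGTGacttatcaca
Tpp1, CACATG 17 bases after: tgtgacttatCACATGactacagatc

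TCACGTGA was present in the 3 called genes with a window and in none of the 5 uncalled genes with one (Ctsk, Ctsl, Ctsz, Lgmn and Tpp1). A call did not require it, however, since the promoters of 3 other genes called in all 4 lists and described below held CACGTG but no TCACGTGA: Lamp1 with 4 copies, Nagpa with 2 and Glb1 with 1. Both strands were searched, CACGTG and TCACGTGA read the same on each, and every TCACGTGA contains a CACGTG. Over all 32851 promoters of 300 bases in the table, 7.15% held CACGTG and 0.974% TCACGTGA. Of the 180 promoters that hold the summit of a region called in all 4 lists, 91.1% held CACGTG and 46.7% TCACGTGA. Of the 32260 promoters without a summit in any list, 6.03% held CACGTG and 0.493% TCACGTGA. The summit of such a shared region lay a median of 11.5 bp from the nearest CACGTG in its promoter (n = 141 summits). Tpp1, which removes tripeptides and is lost in a childhood lysosomal storage disease, held only CATGTG, with 2 copies 12 bp apart. CATGTG was as frequent in promoters with a shared summit (15.6%) as in all promoters (14.2%) to within 2 percentage points. These are matches of letters, and their absence from a window says nothing about binding outside it.

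Ctsa, Ctsb, Ctsd and Dpp7 had a peak within 1000 bp of a gene end in each of the 4 lists, and the other 6 genes had none in any list. The count was thus 4 of 10 in every list. Of all protein-coding genes, 2.54% had such a peak in normal 1, 2.68% in normal 2, 2.01% in starved 1 and 2.3% in starved 2. A region called in both normal lists was present at 2.2% of protein-coding genes, in both starved lists at 1.79% and in all 4 lists at 1.14%. A gene-end peak in at least 1 list was present at 4.05%. The number of called genes did not differ between conditions (difference 0, exact two-sided permutation test over 6 labelings, p = 1; with 2 against 2 lists p cannot fall below 0.33). By class, 2 of 3 serine peptidases, 1 of 1 aspartic peptidase, 1 of 5 papain-like cysteine peptidases and 0 of 1 legumain-type peptidase were called. The genes were chosen with results of these data known, so this count was not tested against other genes.

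Ctsa encodes cathepsin A, a carboxypeptidase that also protects lysosomal beta-galactosidase and neuraminidase from breakdown. Fold enrichment is the authors' ratio of coverage at the summit to local background, with 1 added to each. At Ctsa it was 30.1 in both normal lists, 12.5 in starved 1 and 11.3 in starved 2. The −log10 q was 59.8 in both normal lists, 23.4 in starved 1 and 19.2 in starved 2. These values placed it at rank 3 of 1645 and rank 4 of 2124 by −log10 q in the normal lists, and at rank 32 of 825 and rank 51 of 1178 in the starved lists. Among the 4 genes it was the first by −log10 q in both normal lists and in starved 1, and by fold enrichment in both normal lists. Ctsa spans chromosome 2, 164832872 to 164841032, and its region covers 164833441 to 164834040. The summits lay 885 to 911 bp from the nearest end of the gene span, at 164832872, but only 5 to 16 bp from its second annotated start, at 164833773. The same region reaches the start of Neurl2, an adaptor for ubiquitin ligases that is transcribed the opposite way. That start, at 164833596, was 161 to 187 bp from the summits, so the region cannot be assigned to 1 of these genes. Such sharing was found in 45 of the 205 gene-end regions called in all 4 lists (22.0%).

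Dpp7 encodes dipeptidyl peptidase 7, which removes dipeptides from the amino end of peptides. The fold enrichment at Dpp7 was 10.9 (normal 1), 9.26 (normal 2), 14.8 (starved 1) and 14.2 (starved 2), with −log10 q of 18.5, 13.8, 23.3 and 22.8. It ranked 83 of 1645, 153 of 2124, 34 of 825 and 36 of 1178. By fold enrichment Dpp7 was the first of the 4 genes in both starved lists and the third in both normal lists. The region covers 25356032 to 25356644 on chromosome 2, at the start of the gene (25352290 to 25356389, minus strand). Its summits also lay 62 to 139 bp from the start of the long non-coding RNA Gm46732, which is transcribed the other way.

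Ctsb encodes cathepsin B, an abundant cysteine endopeptidase, and it was the only one of the 10 genes with regions at 2 places. The gene-end region (chromosome 14, 63122221 to 63122625) lay at the lower-numbered end of the gene span (63122462 to 63145923). It had fold enrichments of 17.6 (normal 1), 16.9 (normal 2), 5.82 (starved 1) and 6.61 (starved 2). Its −log10 q was 30.0, 28.4, 4.61 and 5.53, and its rank was 26 of 1645, 31 of 2124, 381 of 825 and 351 of 1178. Among the 4 genes it was thus the second in both normal lists and the third in both starved lists. Its summits spread over 161 bp, the widest of the 5 regions, from 24 bp inside to 137 bp before the gene span. No end of another annotated gene lay within 1000 bp of these summits.

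The other Ctsb region lay 8373 to 8403 bp inside the gene (chromosome 14, 63130611 to 63131011). It was called in normal 2, starved 1 and starved 2, with fold enrichments of 6.35, 6.26 and 6.94 and −log10 q of 5.14, 5.56 and 6.62. Normal 1 had no peak there. Its 3 summits lay within 30 bp of each other, and no end of another annotated gene lay within 1000 bp of them. In both starved lists it ranked above the region at the gene end, at 307 against 381 and at 275 against 351, whereas in normal 2 it ranked below it, at 736 against 31. Of all protein-coding genes, 5.46%, 6.5%, 3.23% and 4.1% had a summit inside or near an end in the order of the lists, and long genes have more room for one. Exon and intron positions were not used here, so the part of the gene it lies in is not given.

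Ctsd encodes cathepsin D, the main aspartic endopeptidase of the lysosome, and had the weakest gene-end region of the 4 by fold enrichment in each list. In the order of the lists its values were 5.65, 6.90, 5.37 and 4.87, with −log10 q of 3.41, 5.78, 4.25 and 4.14. The ranks were 974 of 1645, 649 of 2124, 396 of 825 and 503 of 1178. These ranks lie between the top 30.6% and the top 59.2% of a list, where the calls depend on few reads. The region covers 142387816 to 142388219 on chromosome 7, before the start of the gene (142375910 to 142387827, minus strand), and no other gene ends there.

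Among the 4 called genes the median fold enrichment was 14.2, 13.1, 9.15 and 8.93 in the order of the lists. The 247 regions called in all 4 lists, as these 4 genes were, had medians of 9.46, 9.46, 8.05 and 7.94, so that the gap was small in the starved lists. All peaks at gene ends, including those of a single list, had medians of 7.41, 7.53, 7.03 and 6.81. The strongest site of each list, at the lysosomal membrane gene Lamp1, had 47.0, 44.1, 25.5 and 32.3.

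**Figure D2:**
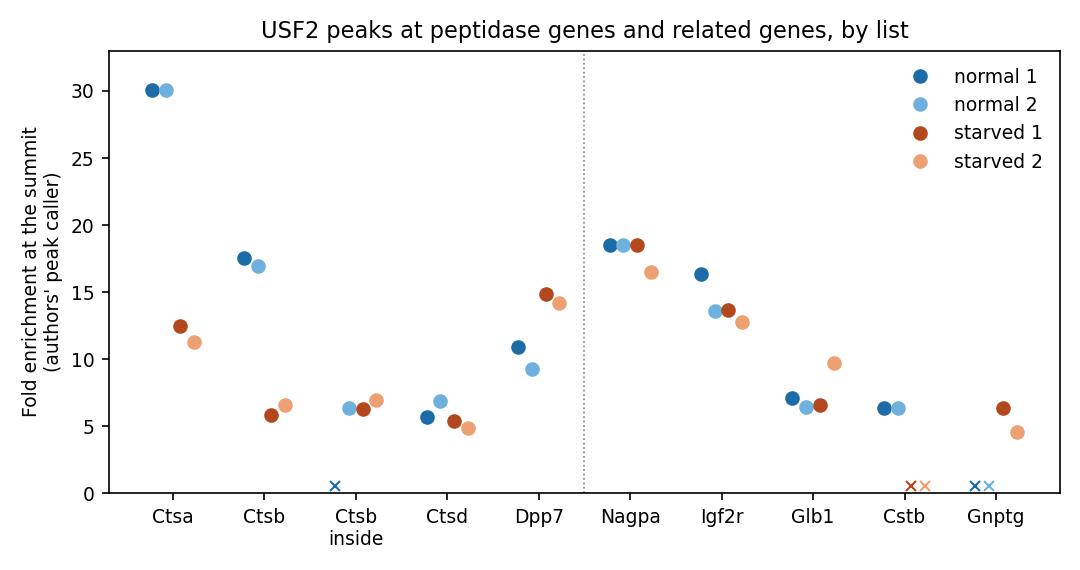
Fold enrichment at the summit for the called peptidase genes (left of the dotted line) and for called genes of peptidase delivery and inhibition (right), with 1 point per list and a cross near 0 where a list has no peak. The order of the peptidase genes is Ctsa, Ctsb, Dpp7, Ctsd in both normal lists and Dpp7, Ctsa, Ctsb, Ctsd in both starved lists.

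The fold enrichment combines reads at the summit with the local background, and both are set side by side here. At Ctsa the recovered summit coverage was 38 reads in both normal lists (95% Poisson interval 26.9 to 52.2), 30 in starved 1 (20.2 to 42.8) and 26 in starved 2 (17.0 to 38.1). These intervals overlap, which does not test whether the reads differ. The background was 0.297 reads in both normal lists, 1.48 in starved 1 and 1.40 in starved 2. At Dpp7 coverage was 26, 22, 23 and 24 reads, so the lists overlapped fully, and the background was 1.48 in both normal lists, 0.617 in starved 1 and 0.762 in starved 2.

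At the gene-end region of Ctsb coverage was 27 and 26 reads in the normal lists, against 12 and 11 after starvation. The intervals run from 17.8 to 39.3 (normal 1), 17.0 to 38.1 (normal 2), 6.20 to 21.0 (starved 1) and 5.49 to 19.7 (starved 2). They overlap, which again does not test whether the reads differ. Inside Ctsb the summits had 11, 13 and 13 reads in normal 2, starved 1 and starved 2. At Ctsd the reads numbered 8, 10, 13 and 15 in the order of the lists, over backgrounds of 0.593, 0.594, 1.61 and 2.29. The backgrounds of the normal lists at Ctsb and Ctsd were 2 times and at Dpp7 5 times that at Ctsa, within 0.001%. Such steps were computed for the normal lists only, so they do not set these lists apart from the starved lists. Whole multiples of the value at Ctsa were not found everywhere. In normal 1 the background at Igf2r, a gene described below, was 0.226 reads, against 0.297 at Ctsa. In the regions called in all 4 lists the median coverage was 17, 17, 18 and 18 reads. The median background was 0.890, 0.890, 1.23 and 1.27 reads, so the recovered value was higher in the starved lists over shared regions in general. Ctsa, Ctsb and Ctsd had a higher background in the starved lists too, and Dpp7 a lower one. These values are not per base. The lowest background of each list, divided by its narrowest peak width, was higher in the normal lists. It was 644, 644, 428 and 434 reads per Mb in the order of the lists. Library depth is not known from the lists and the calling width differs between the conditions, and their part in these differences was not tested.

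**Figure D3:**
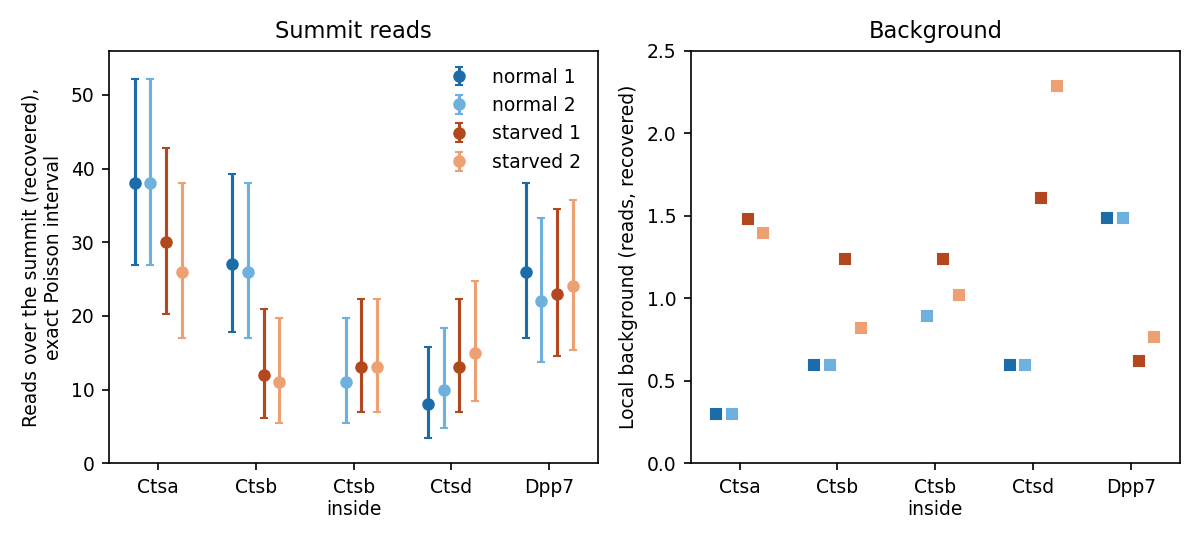
Reads over the summit with 95% Poisson intervals (left) and local background in reads (right), both recovered from the deposited values, for the 5 regions of the peptidase genes, with 1 point per list. The intervals of the lists overlap in each region, which does not test a difference. The background of both normal lists lies above that of the starved lists at Dpp7 and below it at Ctsa.

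A rank within the 247 regions called in all 4 lists does not depend on list length. By −log10 q Ctsa was at 3 (normal 1), 4 (normal 2), 31 (starved 1) and 44 (starved 2). Ctsb was at 24, 28, 219 and 205 in the same order. Both ranked higher in each normal list than in either starved list, which was also true of 36.4% of the 247 regions. Dpp7, at 70, 110, 33 and 32, ranked higher in the starved lists, as did 38.5% of the regions. Ctsd overlapped between conditions, at 229 and 209 against 224 and 226. Differences of this kind were therefore common among shared regions and are not particular to the peptidase genes. The choice of rank changed this comparison for Dpp7 and Ctsd. Ranked by summit reads, Dpp7 overlapped between conditions (41 and 83 against 59 and 52). By the same measure Ctsd stood higher in the starved lists (230 and 213 against 184 and 160), like 40.5% of the regions, and Ctsa and Ctsb still stood higher in the normal lists, like 38.9%. Ranked by fold enrichment, Ctsd stood slightly higher in the normal lists (222 and 197 against 226 and 236), like 35.2% of the regions.

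**Figure D4:**
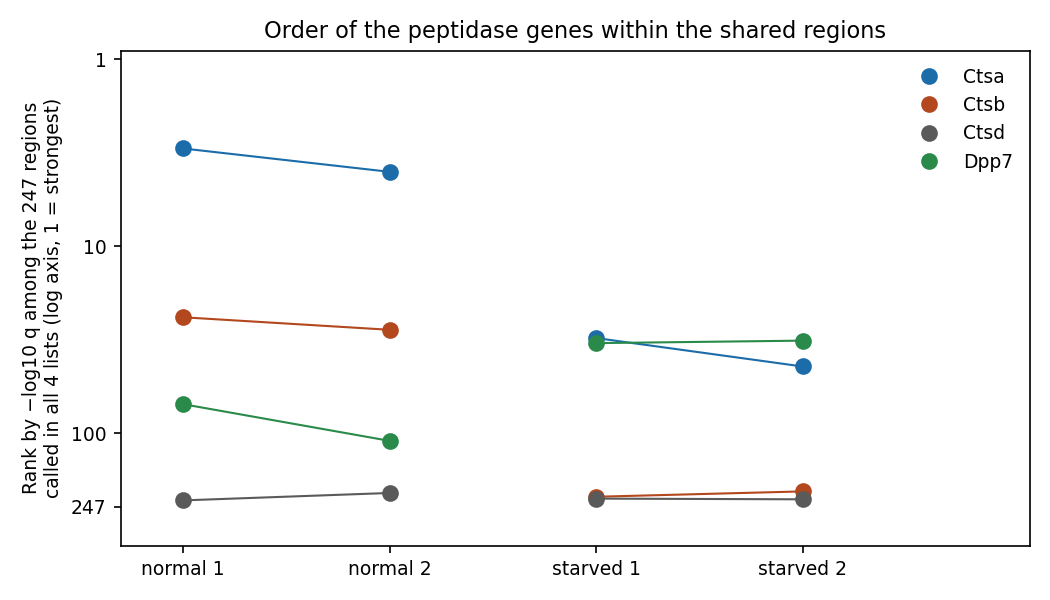
Rank by −log10 q among the 247 regions called in all 4 lists, on a log axis with the strongest at the top, for the 4 called peptidase genes, with lines joining the lists of a condition. Ctsa and Ctsb stand higher in the normal lists, Dpp7 stands higher in the starved lists, and Ctsd stays between 209 and 229.

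The ratio of summit reads between 2 genes of the same library was compared for the 6 pairs of called genes. The reads at the gene-end region of Ctsb were 1.04 and 1.18 times those at Dpp7 in normal 1 and normal 2. In starved 1 and starved 2 they were 0.522 and 0.458 times those at Dpp7. Against Ctsd they were 3.38, 2.60, 0.923 and 0.733 times in the same order. In each of the 6 pairs the 2 conditions did not overlap, but neither did they in 76.2% of all pairs of shared regions. The exact two-sided permutation p was 0.33 for each pair, adjusted p = 0.33 over 6 pairs, which is the smallest that 2 against 2 lists allow.

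No list had a peak in or within 1000 bp of Ctsl, a cysteine endopeptidase, Ctsz, a carboxypeptidase, Ctsh, an aminopeptidase, Ctsk, the collagen-degrading cathepsin of osteoclasts, Tpp1 or Lgmn, which activates other cathepsins. Their nearest summits were far away. For Ctsz the nearest was 27.3 kb from the gene, in starved 2, and for Ctsk 95.0 kb, in normal 2. For Ctsl, Lgmn, Ctsh and Tpp1 the nearest summit of any list lay 184, 239, 267 and 1051 kb away. The weakest peaks of the lists rested on 3 reads, and peaks at gene ends had medians of 13, 12, 16 and 15 reads. A weak site can therefore be missed at this depth, and a gene without a peak is one that did not pass the threshold of the caller, with binding below it unknown.

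The 35 other genes of the pathway were counted in the same way. Of all protein-coding genes, 4.05% had a gene-end peak in at least 1 list and 1.14% a region called in all 4 lists. None of 10 further lysosomal or endosomal peptidases (Ctsc, Ctse, Ctsf, Ctso, Ctss, Ctsw, Cpq, Napsa, Prcp and Scpep1) had a gene-end peak in any list. Nor did any of 8 placental cathepsins (Ctsj, Ctsm, Ctsq, Ctsr, Cts3, Cts6, Cts7 and Cts8). Among 7 cystatins and stefins, which inhibit cysteine cathepsins, only Cstb was called, in both normal lists with 11 reads each and fold enrichments of 6.35 and 6.35. The peaks at Cstb (chromosome 10, 78425593 to 78425773) end at the same base in both normal lists. Among 10 genes of peptidase delivery and partners, 3 were called in all 4 lists. Nagpa, which uncovers the mannose 6-phosphate tag of lysosomal enzymes, had fold enrichments of 18.5, 18.5, 18.5 and 16.5.

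Igf2r, a receptor that carries enzymes with this tag, had 16.3, 13.6, 13.6 and 12.8 (chromosome 17, 12769452 to 12770049). Its promoter held 2 copies of TCACGTGA, unlike those of Nagpa and Glb1, which held none. Glb1, the beta-galactosidase that cathepsin A protects, had 7.11, 6.40, 6.54 and 9.71 (chromosome 9, 114400754 to 114401194), shared with an end of Tmppe and with an identical peak start in the normal lists. Gnptg, a subunit of the enzyme that starts the tag, was called in both starved lists only, with 6.32 and 4.59 over 10 reads each, shared with an end of Tsr3. Neu1, the neuraminidase that cathepsin A protects, was not called in any list, and neither were Psap, Ifi30, Gnptab, M6pr and Sort1.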

How the data were processed

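The 4 USF2 peak lists were analysed, from 4 of 12 samples in the series. The 8 input and histone mark libraries were not analysed here. Per the submitters' processing notes, Bowtie2 2.5.1, MACS2 2.2.7.1, deepTools 3.5.1 and GRCm38 were used, and parameters, duplicate handling and controls are not given in the sources used here. In the deposited lists the fold enrichment is a ratio of coverage to local background, with 1 added to each. The authors' caller also gave −log10 p and −log10 q for each peak, with 1 library per list.

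Summits were column 2 plus column 10 (written 1-based), and 8 peaks off the assembled chromosomes were left out. Peaks of all lists overlapping by at least 1 bp formed a region, placed at the summit with the best −log10 q. Genes came from RefSeq (GRCm38.p6). Summit reads k and background came from fold = (k + 1)/(background + 1) and the Poisson tail of −log10 p, and every peak matched within 0.001. Intervals are exact 95% Poisson intervals and cover counting error only. The recovery of reads, the forming of regions and the assignment of summits to gene ends were tested on simulated data, and the other steps were not. Python 3.11.15, pandas 2.3.3, NumPy 2.4.6 and SciPy 1.17.1 were used.

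The genes, lists and tests were chosen with earlier results of these data known. Named are all 10 peptidase genes, genes of the 4 related lists called in at least 2 lists, genes sharing a region, and Lamp1 for scale. Ranks among shared regions and ratios between genes were added after the data were seen. Related genes without a call are named to account for their lists. Alternatives covered window, threshold, list length, reads, overlap and left-out libraries.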

Additional observations from a re-analysis of the deposited data

How the results depend on the processing

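The calls of Ctsa and Dpp7 held at a stricter threshold, while those of Ctsb and Ctsd depended on it. The share of all protein-coding genes is given above for the main setting only, so the counts below stand without one. With −log10 q of at least 5, 2 genes (Ctsa and Dpp7) were called in both starved lists and 2 in all 4 lists, and the mean number of called genes was 1 lower in the starved lists (-1, exact permutation test, two-sided p = 0.667). With lists of equal length (825 peaks) or at least 10 summit reads, the mean difference was 0.5, as Ctsd dropped out of normal 1 (exact permutation test, p = 1), and 3 genes were called in all 4 lists. A reciprocal overlap of 50% left 1 gene, Ctsb, in all 4 lists, with 4 in both normal and 4 in both starved lists, and peaks of the conditions differ in width by construction. Within 500 bp of a gene end 3 genes were called in each list, without Ctsa, and within 5000 bp or by any overlap of the peak 4. Leaving out each library gave 4 to 4 genes for every count and a difference of 0 to 0. CACGTG within 100 bases of a summit was found in 3 genes, against 5 with it anywhere in the promoter, since uncalled genes have no summit. With the replicate number as a block, or crossed, the difference stayed 0 (exact permutation test, p = 1). Same-numbered lists did not deviate together (r = -0.07 for log2 fold over 247 regions, which share libraries). With 2 lists per condition this correlation cannot tell whether the numbers pair the libraries. At the summits of the peptidase genes 8 to 38 reads limit the precision.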
